A study of Mus musculus with 6 samples.

Results

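Slc7a11, the cystine carrier of the plasma membrane, and 9 genes of glutathione and thioredoxin metabolism were examined in thymic stage 0 iNKT cells from mice of 2 genotypes, BALB/c and SKG. These 10 genes (Slc7a11, Slc3a2, Gclc, Gclm, Gss, Gsr, Gpx1, Gpx4, Txnrd1 and Nfe2l2) were found by symbol among the 48397 genes of the count table, and all 10 passed the filter on low counts, as did 12312 genes in all. Slc7a11 was selected on its reads in these same libraries, which differed between the genotypes, so its values are a description without a test. It passed the filter only through the SKG libraries, where it is high. The other 9 genes were chosen for their function beside it, to ask whether the Slc7a11 difference came with its partner chain, with targets of Nfe2l2 or with glutathione genes.

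Invariant natural killer T (iNKT) cells are T cells that see lipids on CD1d, and stage 0 is the first step of their development that can be sorted from the thymus. Both groups were on the BALB/c strain and were 8 to 10 weeks old. The BALB/c group was wild type, and the SKG group carried a hypomorphic mutation of Zap70, the kinase that relays the T cell receptor signal. Each genotype had 3 libraries, and each library came from about 1000 cells sorted from the pooled thymi of 3 mice as CD1d tetramer+, CD24+, CD69+, CD44-, CD4lo/- and CD8- cells. A replicate is thus a pool of mice, and in bulk RNA fewer cells that express a gene cannot be told apart from less of its RNA per cell. The mutation alters the protein, so reads on Zap70 do not check the genotype labels.

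Slc7a11 is the light chain of system xc-, an exchanger that brings cystine into the cell in return for glutamate, and Slc3a2 (4F2hc, CD98) is the heavy chain that carries it to the membrane. Cystine is reduced to cysteine, which the glutamate-cysteine ligase (catalytic chain Gclc, modifier chain Gclm) and the synthetase Gss build into glutathione. Gpx1 and Gpx4 spend glutathione to reduce peroxides, Gpx4 those of membrane lipids, Gsr restores it from its oxidized form, and Txnrd1 does the same for thioredoxin. Nfe2l2 (Nrf2) is the transcription factor best known for inducing many of these genes under oxidative stress, through antioxidant response elements. Slc7a11 is also a textbook target of Atf4, the factor of the amino acid response, which binds C/EBP-ATF response elements.

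Since Slc7a11 is the gene that differed, the 250 bases before its start are shown, from RefSeq on build GRCm38.p6 (chr3:50443614-50443863, minus strand, 5′ to 3′ along the gene). Capitals mark matches to the core of the C/EBP-ATF response element, TGATGNAA, searched on both strands.
Slc7a11: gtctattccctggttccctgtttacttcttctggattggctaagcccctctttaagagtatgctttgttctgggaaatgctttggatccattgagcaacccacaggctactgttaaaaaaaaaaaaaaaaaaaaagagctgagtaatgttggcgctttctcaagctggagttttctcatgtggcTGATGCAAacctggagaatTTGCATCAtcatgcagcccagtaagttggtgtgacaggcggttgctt
The window held 2 matches, the first on the strand of the gene from 66 to 59 bases before the start and the other on the opposite strand from 47 to 40 bases before it. Of 32851 RefSeq windows of this length, 3.45% held the core at least once and 0.0396%, or 13 windows, at least 2 times. Among the 8 of the 10 genes with a RefSeq window, only Slc7a11 held it.

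The core of the antioxidant response element, TGACNNNGC, was searched in the same windows on both strands and was found in 10.2% of them. Its first letters are shared with the site of AP-1 factors. Gclc and Gsr had no RefSeq window and were not searched for either core. The window of Slc7a11 held no match. Counted by gene, 3 of the 8 genes with a window held one, beside 11.5% of all genes with a window. Those 3 matches are shown with up to 15 flanking bases a side and with the match in capitals, for Gclm (chr3:122245408-122245446, plus strand), for the second of 3 starts of Txnrd1 (chr10:82859099-82859137, plus strand) and for Nfe2l2 (chr2:75704880-75704913, minus strand).
Gclm: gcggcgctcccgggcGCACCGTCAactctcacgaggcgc
Txnrd1: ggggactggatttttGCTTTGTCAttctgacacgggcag
Nfe2l2: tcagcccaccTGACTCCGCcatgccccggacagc
A match is a description of letters, and the files hold no measure of binding at these windows.

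Slc7a11 spans bases 49892526 to 50443614 of chromosome 3 (GRCm38, as for all positions given), and no other annotated gene overlaps its exons. It was nearly silent in the wild type, where BALB/c replicates 1 to 3 held 10, 20 and 8 reads, and carried 1459, 1215 and 1445 reads in the SKG replicates 1 to 3. Expression is given as CPM, the depth-scaled read count, here with library totals normalized by TMM. On that scale Slc7a11 was at 0.242, 0.539 and 0.177 CPM in BALB/c and at 36.2, 31.3 and 40.0 CPM in SKG. The lowest SKG library was far above the highest BALB/c library, and the SKG libraries differed among themselves by 1.28-fold at most. The fitted log2 fold change, SKG over BALB/c, was 6.80, or 111-fold, as a description. It ranged from 6.51 to 7.39 as single libraries were omitted. Of 12312 tested genes, 9 had a higher fitted log2 fold change in SKG.

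**Figure D1:**
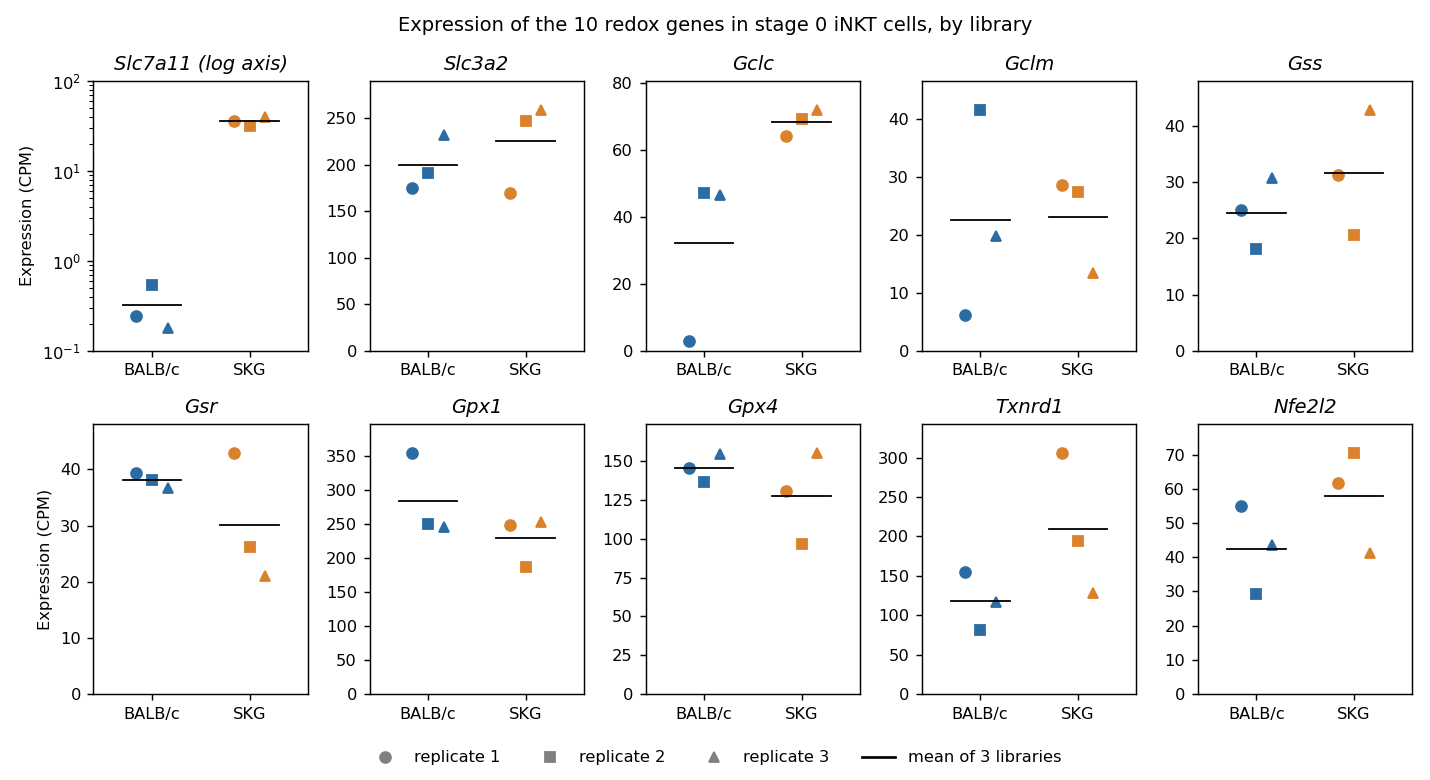
Expression in CPM (vertical axis, logarithmic for Slc7a11 and linear from 0 for the others) of the 10 genes in 3 BALB/c and 3 SKG libraries, with a symbol for each replicate number and a line at the mean. Slc7a11 sat between 0.177 and 0.539 CPM in BALB/c and between 31.3 and 40.0 CPM in SKG, while the libraries of 8 of the other 9 genes overlapped and BALB/c replicate 1 stood low for Gclc and Gclm.

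None of the 9 other genes passed the test. EdgeR (quasi-likelihood, adjusted p under 0.1 with a change of 1.5-fold or more) called 0 of the 9, beside 0% of the 12312 genes tested, a background that leaves no call for any gene. At an unadjusted p under 0.05 there were 0 of the 9 as well with all libraries (Txnrd1 passes under some alternatives, given with its values), beside 5.45% of all tested genes (3.07% with SKG and 2.38% with BALB/c the higher genotype). Their adjusted p ranged from 0.952 to 0.999 (edgeR), 6 of the 9 log2 fold changes were above 0 and 3 below, and their median was 0.18 beside -0.02 for all tested genes. For 1 of the 9, Gclc, BALB/c and SKG libraries were fully separate, beside 13.9% of all tested genes (6.77% with SKG and 7.12% with BALB/c the higher genotype). By the same thresholds DESeq2 also called 0 of the 9, where it called 2.58% of all genes (1.23% higher in SKG) without shrinkage and 1.67% (0.851% higher in SKG) with shrunken fold changes.

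Slc3a2, on chromosome 19 from 8706882 to 8723369, was abundant in both genotypes. Its heavy chain serves several light chains, which import large neutral or basic amino acids as well as cystine. It was at 175, 192 and 232 CPM in BALB/c and at 170, 247 and 259 CPM in SKG. The lowest library of all was an SKG library, and the groups overlapped. The log2 fold change was 0.18 with a standard error (SE) of 0.22 (95% interval from -0.34 to 0.69, edgeR adjusted p = 0.991). That interval leaves out a doubling of Slc3a2 RNA.

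Because reads of both chains come from the same library, their ratio needs no scaling between libraries. Slc7a11 reads amounted to 0.138%, 0.281% and 0.0764% of Slc3a2 reads in the BALB/c libraries and to 21.3%, 12.6% and 15.4% in the SKG libraries. The log2 ratio was therefore 6.80 higher in SKG, the same as the log2 fold change of Slc7a11 alone, and the ratio is given as a description.

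Among the light chains that pair with Slc3a2, Slc7a11 stayed a small part of the RNA per kilobase of exon even in SKG. Levels of different genes are compared per kilobase of exon, and Slc7a11 made up 0.0248% ± 0.0073 (SD, n = 3 libraries) of the summed CPM per kilobase of 6 light chains in the wild type and 2.80% ± 0.89 (SD, n = 3) in SKG. Slc7a5 (LAT1), which imports large neutral amino acids, made up 66.1% ± 2.95 (SD, n = 3) and 64.9% ± 6.41 (SD, n = 3), and Slc7a6 28.3% ± 6.44 (SD, n = 3) and 25.2% ± 10.2 (SD, n = 3). These shares depend on the length of all annotated exons, 13922 bases for Slc7a11, 3708 for Slc7a5 and 4570 for Slc7a6. Without that length, the SKG means were 35.8 CPM for Slc7a11, 232 CPM for Slc7a5 and 111 CPM for Slc7a6. In CPM, Slc7a5 had a log2 fold change of 0.10 (SE 0.30, edgeR adjusted p = 0.991).

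**Figure D2:**
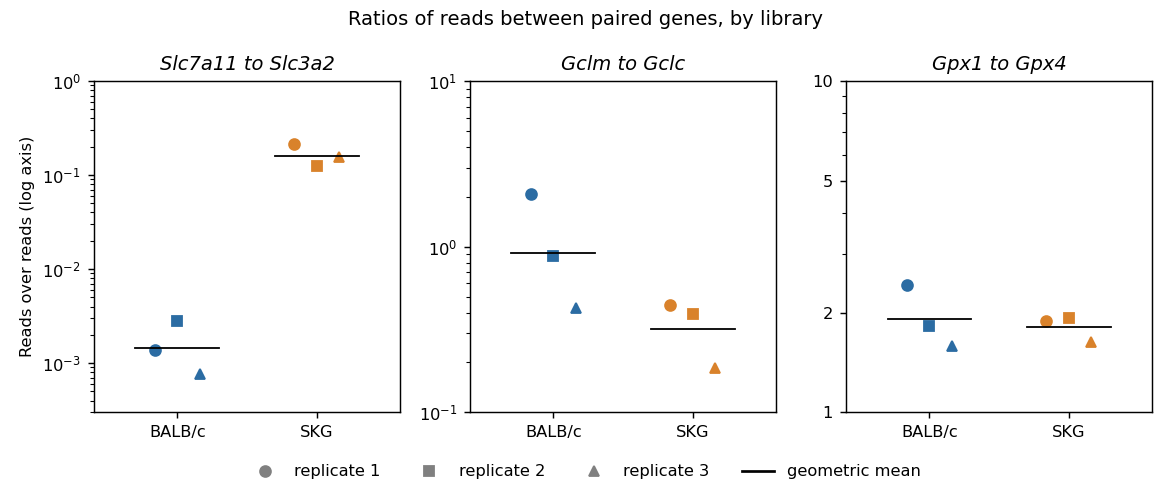
Reads of Slc7a11 over Slc3a2, Gclm over Gclc and Gpx1 over Gpx4 in each library (vertical axes logarithmic, without unit), with a symbol for each replicate number and a line at the geometric mean. The ratio of Slc7a11 to Slc3a2 separated the genotypes, at most 0.281% in BALB/c and at least 12.6% in SKG, whereas the Gpx1 to Gpx4 ratios overlapped.

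Of the glutamate-cysteine ligase, the catalytic chain Gclc (chromosome 9, 77754535 to 77794485) was the only other gene of the 10 that was higher in each SKG library than in any BALB/c library. It was at 2.93, 47.0 and 46.5 CPM in BALB/c and at 64.0, 69.3 and 71.9 CPM in SKG. The SKG libraries were close together, and BALB/c replicate 1 was far below the other BALB/c libraries. The log2 fold change was 1.09 (SE 0.88, 95% interval from -1.02 to 3.20, edgeR adjusted p = 0.991). Without BALB/c replicate 1 it was 0.56 (edgeR adjusted p = 1). The unadjusted p (edgeR) was 0.258 with all libraries and 0.0864 without that library. With this library in the fit the spread between BALB/c libraries was larger than the difference between the genotypes.

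The modifier chain Gclm (chromosome 3, 122245557 to 122270732), which makes the ligase more efficient, was also lowest in that library. It was at 6.11, 41.5 and 19.8 CPM in BALB/c and at 28.5, 27.3 and 13.4 CPM in SKG, with the highest and the lowest library both in BALB/c. The log2 fold change was 0.04 (SE 0.78, 95% interval from -1.83 to 1.90, edgeR adjusted p = 0.999), and leaving out 1 library gave values from -0.40 (without BALB/c replicate 1) to 0.82 (without BALB/c replicate 2). Its exons overlap those of Gm17494, on the opposite strand, and of the pseudogene Gm6061, on the same strand, and reads in the shared bases cannot be assigned to 1 gene in these unstranded counts.

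The ratio of Gclm to Gclc reads was 2.08, 0.884 and 0.426 in BALB/c and 0.446, 0.394 and 0.186 in SKG. The mean log2 ratio was 1.53 lower in SKG, a difference that the exact two-sided permutation test did not separate from the spread between libraries (p = 0.2, where 0.1 is the smallest p that 3 libraries against 3 allow). Lows in a single library were not limited to this pair of genes and were counted by a rule. Gclc met it, with 121 reads in BALB/c replicate 1 and 1742 in the next lowest library. Gclm, with 252 and 894 reads there, did not. Of 6567 tested genes with a median of at least 1000 reads in BALB/c, 123 (1.87%) were at least 10-fold lower in a single library than in the next lowest, and in 96 of them the low library was BALB/c replicate 1. In SKG the count was 145 of 6416 genes (2.26%), of which 129 were low in SKG replicate 3.

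Gss, which joins glycine to finish glutathione (chromosome 2, 155563181 to 155592810), was at 18.1 to 30.7 CPM in BALB/c and 20.7 to 42.9 CPM in SKG. The log2 fold change was 0.36 (SE 0.48, edgeR adjusted p = 0.991), with overlapping libraries. Reads in bases shared with Acss2 and the antisense genes Gssos1 and Gssos2 cannot be told apart without strand. Gsr, the reductase (chromosome 8, 33652523 to 33698163), was at 39.4, 38.2 and 36.7 CPM in BALB/c and 42.9, 26.2 and 21.0 CPM in SKG. The BALB/c libraries agreed closely, the SKG libraries spread to either side of them, and the log2 fold change was -0.34 (SE 0.41, edgeR adjusted p = 0.991).

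Both glutathione peroxidases were abundant in every library. Gpx1 (chromosome 9, 108338903 to 108340343), which acts on soluble peroxides, was at 354, 249 and 245 CPM in BALB/c and at 248, 186 and 253 CPM in SKG. Its log2 fold change was -0.30 (SE 0.21, 95% interval from -0.82 to 0.21, edgeR adjusted p = 0.988). Gpx4 (chromosome 10, 80047166 to 80056439), which protects membranes from lipid peroxides, was at 146, 136 and 154 CPM in BALB/c and at 131, 96.7 and 155 CPM in SKG. Its log2 fold change was -0.19 (SE 0.22, 95% interval from -0.71 to 0.33, edgeR adjusted p = 0.991). The libraries of the genotypes overlapped for both, and the intervals leave out a doubling in either direction. Reads of Gpx1 amounted to 1.59 to 2.43 times those of Gpx4 in BALB/c and 1.63 to 1.92 times in SKG (exact two-sided permutation test of the log2 ratio, p = 0.9).

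Txnrd1, the cytosolic thioredoxin reductase and a known Nfe2l2 target (chromosome 10, 82833951 to 82897712), had the lowest p of the 9 genes. It was at 154, 81.6 and 116 CPM in BALB/c and at 306, 195 and 128 CPM in SKG. The highest libraries were SKG replicates 1 and 2, while SKG replicate 3 lay within the BALB/c range. The log2 fold change was 0.83 (SE 0.38, 95% interval from -0.07 to 1.74, edgeR adjusted p = 0.952), and it was 0.46 when SKG replicate 1 was omitted and 1.10 when SKG replicate 3 was. The unadjusted p, 0.0653 with all libraries, was 0.0189 without SKG replicate 3, 0.0430 without BALB/c replicate 1 and 0.0335 without the filter on low counts, and Txnrd1 was not called in any of these fits.

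Nfe2l2 itself (chromosome 2, 75675513 to 75704641) was at 54.8, 29.1 and 43.5 CPM in BALB/c and at 61.8, 70.4 and 41.3 CPM in SKG. SKG replicates 1 and 2 were again the highest, and replicate 3 lay within the BALB/c range. The log2 fold change was 0.45 (SE 0.38, 95% interval from -0.46 to 1.35, edgeR adjusted p = 0.991). Its activity is set mainly by protein stability, which RNA does not show.

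**Figure D3:**
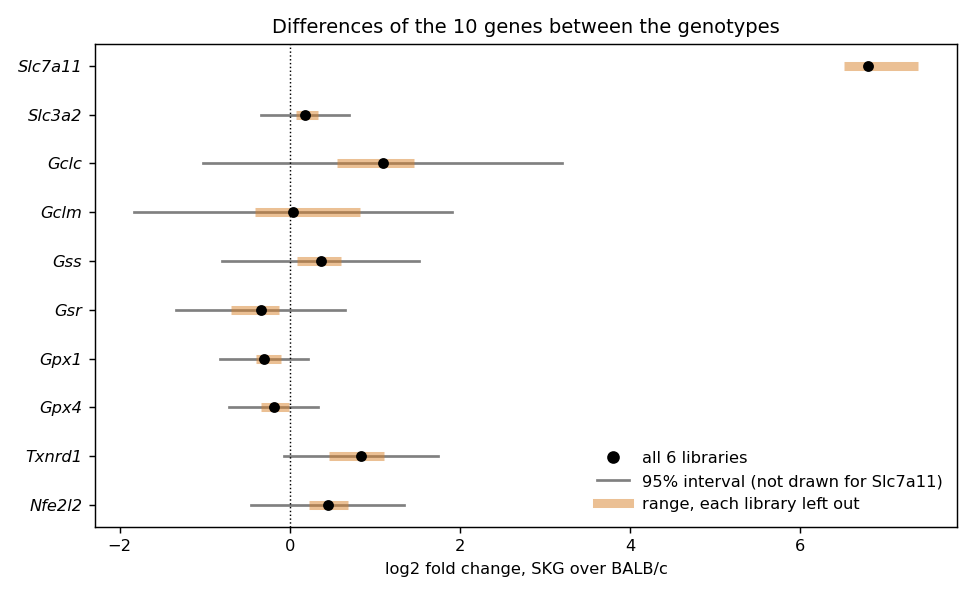
Log2 fold changes, SKG over BALB/c (horizontal axis), of the 10 genes from all 6 libraries (points), with 95% intervals for the 9 genes other than Slc7a11 and the range when each library was left out in turn (thick bars). The 9 intervals include 0, and the range of Slc7a11 runs from 6.51 to 7.39.

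The order of the 10 genes by level was similar in both genotypes. In CPM per kilobase of exon, BALB/c libraries held Gpx1 at 196 ± 42.7 (SD, n = 3), Gpx4 at 84.4 ± 5.20 (SD, n = 3) and Slc3a2 at 56.6 ± 8.21 (SD, n = 3), and the ranges of these 3 genes did not overlap. Txnrd1 followed at 16.6 ± 5.14 (SD, n = 3), then Gsr at 13.8 ± 0.49 (SD, n = 3), Nfe2l2 at 11.2 ± 3.40 (SD, n = 3) and Gclc at 8.53 ± 6.71 (SD, n = 3), neighbours whose libraries overlapped. Gss at 4.16 ± 1.06 (SD, n = 3) and Gclm at 3.57 ± 2.84 (SD, n = 3) overlapped as well. Slc7a11 was the lowest, at 0.0230 ± 0.0139 (SD, n = 3), below every library of the other 9 genes.

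In SKG, Gpx1 was at 159 ± 26.0 CPM per kilobase (SD, n = 3), above Gpx4 at 74.0 ± 17.1 (SD, n = 3) and Slc3a2 at 63.9 ± 13.7 (SD, n = 3), which overlapped. Txnrd1 at 29.6 ± 12.7 (SD, n = 3), Gclc at 18.2 ± 1.07 (SD, n = 3), Nfe2l2 at 15.2 ± 3.95 (SD, n = 3) and Gsr at 10.9 ± 4.16 (SD, n = 3) each overlapped with the next. Gss was at 5.34 ± 1.88 (SD, n = 3) and Gclm at 3.67 ± 1.34 (SD, n = 3). Slc7a11, at 2.57 ± 0.31 (SD, n = 3), was still the lowest by its mean, with libraries inside the range of Gclm. That rank depends on the length of all annotated exons, 13922 bases for Slc7a11 and 6291 for Gclm. In CPM, the SKG mean of Slc7a11, 35.8, was above those of Gss (31.6), Gsr (30.0) and Gclm (23.1) and below the others.

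The wider pathway was followed with 13 lists of 159 genes that are not among the 10, of which 118 passed the filter on low counts. The test called 0 of the 118. At an unadjusted p under 0.05 there were 4, or 3.39%, beside 5.45% of all tested genes, and 12 (10.2%) had libraries that did not overlap, beside 13.9%. The median log2 fold change over the 118 was -0.06, and the lowest adjusted p was 0.617.

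Of 16 tested targets of Nfe2l2 that are not among the 10 genes, 6 had a log2 fold change above 0, 0 had an unadjusted p under 0.05, and the median was -0.07 beside -0.02 for all tested genes. The lowest p values were those of the glutathione-conjugate exporter Abcc1 (log2 fold change -1.27), the peroxiredoxin Prdx1 (-0.29) and the pentose phosphate enzyme Pgd (-0.36). Hmox1, the heme oxygenase that Nfe2l2 induces, was at 17.2, 5.80 and 8.81 CPM in BALB/c and at 14.4, 11.7 and 0.0553 CPM in SKG. Its low value in SKG was that of replicate 3 alone. Srxn1 and Osgin1 had 0 reads in all 6 libraries, and Nqo1, often used as a readout of Nfe2l2, had 122 reads in BALB/c replicate 2 and at most 3 in any other library. Of the 12 regulators and partners of Nfe2l2, all were tested and 0 had an unadjusted p under 0.05. Keap1, the adaptor that marks Nfe2l2 for breakdown, had a log2 fold change of 0.61 (SE 0.39), and the repressor Bach2 one of -0.46 (SE 0.32).

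Of the 14 tested genes of the Atf4 list, 8 had a log2 fold change above 0, and the median was 0.06. Psat1, a serine synthesis enzyme, had the lowest p of the 118 genes. It was at 226, 228 and 207 CPM in BALB/c and at 122, 138 and 128 CPM in SKG, lower in every SKG library, with a log2 fold change of -0.77 (SE 0.15, edgeR adjusted p = 0.617). Whether Atf4 has a part in the Slc7a11 difference was not tested. Eif2ak4 (GCN2), the kinase that senses uncharged tRNA upstream of Atf4, was at 1.84, 0.566 and 37.3 CPM in BALB/c and at 69.9, 75.4 and 121 CPM in SKG. The groups did not overlap, but the BALB/c libraries differed widely, and the log2 fold change of 2.75 had an SE of 1.43 (edgeR adjusted p = 0.954). Atf4 was at 200 to 248 CPM in BALB/c and 128 to 225 CPM in SKG. The targets Chac1 and Atf3 had 0 reads in all libraries, and Asns at most 24.

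The transsulfuration enzymes Cbs and Cth, which make cysteine from methionine, had at most 13 and 18 reads in any library and were not tested. Of the 7 tested carriers, Slc1a5 (ASCT2), an importer of glutamine and other neutral amino acids, was at 545, 713 and 534 CPM in BALB/c and at 418, 522 and 273 CPM in SKG. It was lower in each SKG library, with a log2 fold change of -0.56 (SE 0.26, edgeR adjusted p = 0.952). Slc1a4, a carrier of serine and cysteine, had at most 51 reads.

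Among enzymes of glutathione turnover, the aminopeptidase Lap3 was at 70.1, 53.1 and 52.9 CPM in BALB/c and at 27.1, 33.3 and 21.4 CPM in SKG. Its log2 fold change was -1.11 (SE 0.34, edgeR adjusted p = 0.830), lower in 3 of 3 SKG libraries. Glud1, which links glutamate to the citric acid cycle, was at 62.7, 163 and 155 CPM in BALB/c and at 180, 182 and 205 CPM in SKG. As with Gclc, every SKG library was higher and BALB/c replicate 1 was the lowest (log2 fold change 0.57, SE 0.36, edgeR adjusted p = 0.979).

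The lists of glutathione peroxidases and glutaredoxins (7 tested), glutathione S-transferases (12 tested), superoxide and peroxide removal (3 tested), selenoprotein synthesis (8 tested), transsulfuration and the methionine cycle (5 tested) and NADPH supply (11 tested) each had 0 genes with an unadjusted p under 0.05. Their medians lay between -0.42 and -0.05. In the thioredoxin list, Txnip, the inhibitor of thioredoxin, was at 32.8, 83.4 and 54.6 CPM in BALB/c and at 90.0, 147 and 106 CPM in SKG. It was higher in each SKG library (log2 fold change 1.00, SE 0.39, edgeR adjusted p = 0.877). The other 14 tested genes of that list had an unadjusted p of 0.05 or more. Of the genes that handle iron and lipid peroxides, Gch1, the first enzyme of tetrahydrobiopterin synthesis, was at 69.6, 56.8 and 43.4 CPM in BALB/c and at 10.0, 21.7 and 2.05 CPM in SKG. Its log2 fold change was -2.33 (SE 0.83, edgeR adjusted p = 0.834). Acsl4, which loads polyunsaturated fatty acids into lipids, was at 36.5 to 41.1 CPM in BALB/c and 19.4 to 26.0 CPM in SKG (log2 fold change -0.85, SE 0.38, edgeR adjusted p = 0.952).

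**Figure D4:**
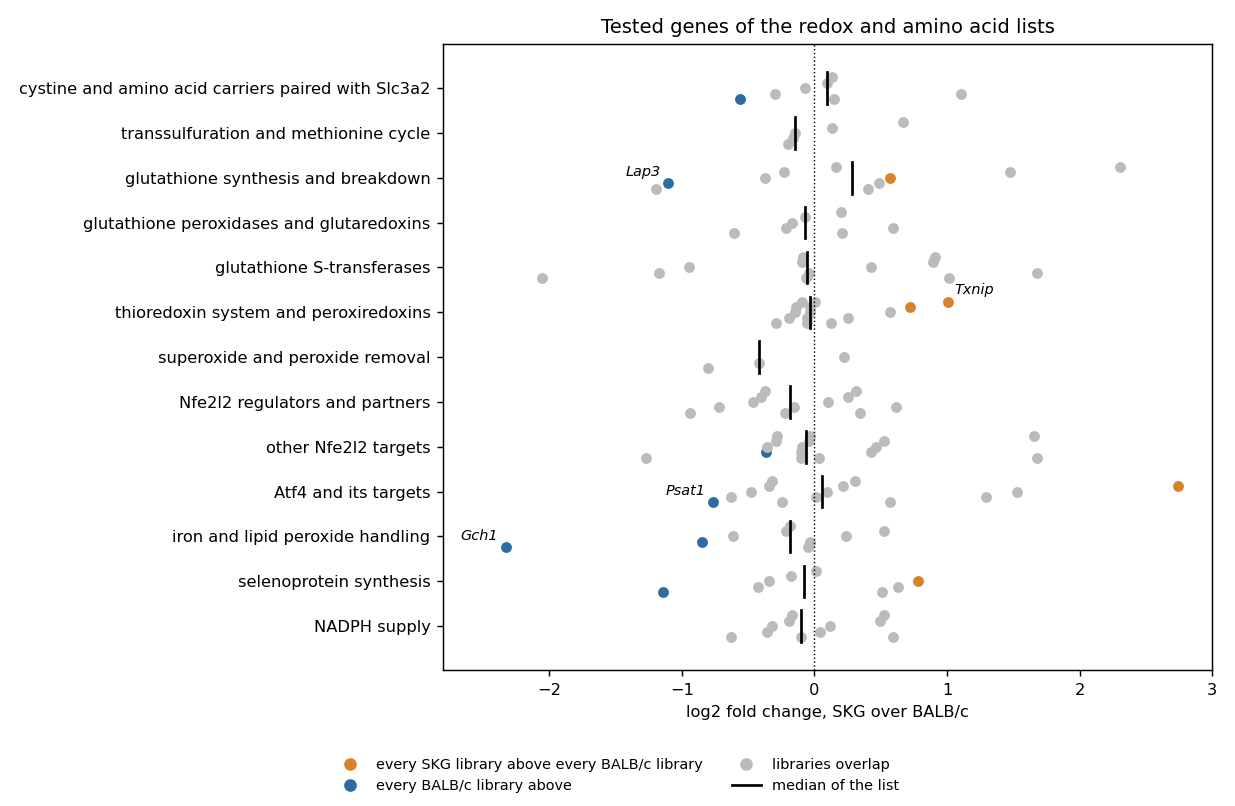
Log2 fold changes, SKG over BALB/c (horizontal axis), of the tested genes in 13 lists (rows; a gene can be in more than 1), coloured by whether the libraries of the genotypes overlapped, with a bar at each list's median and names for the 4 genes with an unadjusted p under 0.05. The medians lie between -0.42 and 0.28, and the named genes are Lap3, Psat1 and Gch1, lower in SKG, and Txnip, higher in SKG.

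Among the genes most like Slc7a11 over the 6 libraries, by Pearson's r of log2 CPM, were Ctc1 (r = 0.998), the pseudogene Gm6682 (r = 0.993), Ank (r = 0.985) and Gm42858 (r = 0.979). Each r describes 6 points in 2 groups that the genotype sets apart. Reads of Ctc1, a part of the CST complex at telomeres, numbered 1180, 1362 and 1129 in BALB/c against 4093, 3853 and 3927 in SKG. Ank, a membrane exporter of pyrophosphate, had 577 to 693 reads in BALB/c and 1614 to 2321 in SKG. Gm42858 had 0 reads in BALB/c and 37 to 126 in SKG. None of these 4 is among the pathway lists.

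Reads counted on genes ranged from 37176544 to 43115544 per library, and 10835 to 14791 genes per library had 10 reads or more. Markers of the sorted cells were present in every library: Cd24a at 7.31 to 90.7 CPM and Trav11d, the variable segment of the invariant receptor, at 21.6 to 30.6 CPM. Trav11, also listed as a marker of these cells, had only 1 to 7 reads. Of the markers that the sort kept low or absent, Cd8a was at 20.4 to 121 CPM and Cd8b1 at 14.4 to 120 CPM. Cd4 was at 4.83 to 33.5 CPM and Cd44 at 0.103 to 14.5 CPM. Cd69, an early activation marker used in the sort, was at 312, 391 and 354 CPM in BALB/c and at 152, 179 and 250 CPM in SKG, lower in each SKG library. Egr2, a factor induced by T cell receptor signals, was at 1097 to 1546 CPM in BALB/c and 493 to 956 CPM in SKG, also lower in each, and Slamf6, a receptor of iNKT cell selection, was higher in each, at 2450 to 2877 CPM in BALB/c and 2962 to 3631 CPM in SKG. Among markers of other cells, Cd1d1, the CD1d chain that double-positive thymocytes present, was higher in each SKG library, at 20.2 to 53.8 CPM in BALB/c and 76.2 to 151 CPM in SKG. Blnk and Hba-a1 did not overlap either, at levels of at most 1 read in most libraries. Cd69, Egr2, Slamf6, Cd1d1, Blnk and Hba-a1 were the only markers of the 7 lists without overlap. Of all tested genes, 13.9% had libraries that did not overlap. The part of these genes and their cells in the Slc7a11 difference was not tested. Of 7 marker lists, 0 had summed CPM that separated the genotypes (exact two-sided permutation tests, p from 0.4 to 1). BALB/c replicate 1, the library with low Gclc and Gclm, had the highest sums for double-positive thymocytes (476 CPM, against 98.0 to 325 in the other libraries), B cells (105 CPM, against 7.42 to 58.0) and erythroid cells (69.7 CPM, against 0.0270 to 1.57). All 10 double-positive and all 9 B cell markers had a read in some library, and 4 of the 8 erythroid markers had none. The part of these cells in the Gclc and Gclm values was not tested. The myeloid sums were 99.0 to 228 CPM in BALB/c and 75.3 to 277 in SKG, with 1 of 10 markers, S100a9, at 0. The thymic epithelial sums were 28.5 to 61.8 CPM in BALB/c and 17.8 to 99.5 in SKG, with 3 of 9 markers (Krt5, Krt14 and Psmb11) at 0.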

How the data were processed

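Reads of 50 nt were mapped by the authors to build GRCm38 (HISAT2 2.1.0), and exonic reads with a mapping quality of 10 or more were counted per gene with featureCounts (Subread 1.4.4), unstranded. The count table deposited by the authors holds whole-number counts without normalization. Their DESeq2 1.14.1 comparison (means, fold changes, errors, statistics and p-values) was not used. The labels name the SMART-Seq v4 kit, the methods a SEQR kit.

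All 6 libraries were fitted with edgeR 4.0.16 in R 4.3.3 (filterByExpr, TMM, quasi-likelihood F test, Benjamini-Hochberg over 12312 genes, no covariates). A gene was called at an adjusted p under 0.1 with a change of 1.5-fold or more. Standard errors are the absolute log2 fold change over the square root of F, and intervals use the fit's degrees of freedom. Ratios and marker sums were compared with exact permutation tests (scipy 1.17.1). Positions and exon lengths are from GENCODE on GRCm38, promoters from RefSeq.

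Members, lists and tests were chosen with earlier results of these data known. Named genes are the members, the 3 lowest p of each list, called genes, 5 genes most correlated with Slc7a11, markers and Zap70; further list genes were named after their values were seen. Some genes that this rule names are not reported here. Alternatives were DESeq2 1.42.0 with and without shrinkage, limma-voom (limma 3.58.1), other factors and filters, replicate blocks and each library left out. Deviations of libraries with the same title number correlated between -0.145 and -0.00962, and between -0.0384 and 0.00289 by library number, so they were not paired.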

Additional observations from a re-analysis of the deposited data

How the results depend on the processing

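In edgeR, 0 of 12312 genes were called (671 at an unadjusted p under 0.05), 0 of the 10 redox genes and 0 of the list genes. The counts stayed at 0 with limma-voom, RLE factors, library size alone, a stricter filter, either replicate block and each library left out (from 0 to 0). DESeq2 without shrinkage called 370 of 14342 genes, or 2.58% (177 higher in SKG). Among them was 1 of the 10, Slc7a11 (not a test, since it was chosen on these values). Of the 159 list genes it called 4, with 3 higher in BALB/c (Lap3, Psat1 and Acsl4) and 1 higher in SKG (Gpx3). Gpx3 did not pass the edgeR filter and had 129, 1 and 138 reads in SKG replicates 1 to 3. With shrunken fold changes it called 231 of 13862 genes, or 1.67% (118 higher in SKG), and 1 of the 10, again Slc7a11. It then called 3 of the 159 list genes (Lap3, Psat1 and Acsl4), all higher in BALB/c. Without a filter edgeR called 2, Susd2 and Gpr83, named after their values were seen. The replicate block by title number gave 6.95 for Slc7a11, 1.71 for Gclc and 0.79 for Txnrd1 (unadjusted p = 0.0444, edgeR), the block by library number 6.59, 2.58 and 0.49. Only library numbers 2 and 3 occur in both genotypes. The block by library number thus compares the genotypes without BALB/c replicate 3 and SKG replicate 1, and with the low BALB/c replicate 1. Of 150 member values under alternatives, 4 changed sign, all for Gclm with 1 library left out (from -0.40 to 0.82). With 1 library left out, the log2 ratio difference lay from 6.35 to 7.29 for Slc7a11 to Slc3a2, from -2.09 to -0.94 for Gclm to Gclc (the latter without BALB/c replicate 1) and from -0.22 to 0.0875 for Gpx1 to Gpx4 (the latter without BALB/c replicate 1, a change of sign). Without TMM factors the SKG minus BALB/c difference turned from 102 to -128 CPM for the stage 0 markers and from 1.99 to -1.72 for the myeloid ones. The cause was not tested. The common dispersion between libraries was 0.842, and the dispersions of single genes differed, at 0.537 for Gclc and 0.117 for Txnrd1. The 95% intervals of Gclc, Gclm, Gss, Txnrd1 and Nfe2l2 include both 0 and more than a doubling. Those of Gclc, Gclm and Gsr include 0 and reach down to -1.02, -1.83 and -1.33.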
